A study of Mus musculus with 8 samples.

Results

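The aryl hydrocarbon receptor (AhR), its repressor, 3 of its target genes and 5 enzymes of oxidative drug metabolism in lung make up the 10 genes described here. They were picked by gene symbol, namely Ahr, Ahrr, Tiparp, Cyp1a1, Cyp1b1, Cyp2b10, Cyp2f2, Cyp4b1, Por and Fmo2, and all 10 were found among the 24584 genes of the table. After low counts were filtered out, 9 of the 10 were among the 15706 genes tested, and Ahrr was not.

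Lung RNA of 8 male ICR mice aged 6 to 8 weeks, labelled as wild type, was sequenced. The 4 mice of the LPS group received 5 mg/kg lipopolysaccharide from Escherichia coli intraperitoneally, and the 4 mice of the LPS + Tan group received the same dose of LPS after 50 mg/kg tangeretin, a polymethoxylated flavone of citrus peel, injected 30 min earlier. All lungs were collected 12 h after LPS. Neither untreated mice nor mice given tangeretin alone were analysed here, so every value belongs to a lung exposed to LPS.

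The AhR is a ligand-activated transcription factor that binds aromatic compounds, including plant flavonoids, moves to the nucleus and pairs with ARNT on DNA. Its classical targets are the P450 genes of the Cyp1 family, the repressor Ahrr, and Tiparp, whose product modifies and dampens the receptor, so that their RNA is commonly read as a measure of receptor activity. The P450 enzymes of lung sit largely in club cells and endothelium, take electrons from the reductase encoded by Por, and oxidise inhaled and circulating chemicals.

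The reads counted on genes summed to 38895654 in the shallowest sample and to 39931970 in the deepest, so depth hardly differed between the mice. Values are given as CPM, that is counts scaled to a common library size with edgeR's TMM factor of the sample, or as FPKM where the levels of different genes are set side by side, since FPKM is also divided by gene length. Log2 fold changes are LPS + Tan over LPS, from edgeR's quasi-likelihood test with its standard error, and adjusted p is the Benjamini-Hochberg value over the 15706 genes. As a check on the tissue, the hepatocyte genes Alb, Apoa1, Ttr, Cyp3a11 and Cps1 were near 0, with at most 26 counts for any of them in any sample, while Scgb1a1 of club cells reached 710305 counts.

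At an adjusted p below 0.05, edgeR called 0 of the 9 tested genes, against 0 of all 15706 genes (0%). DESeq2 called 0 of the 8 to which it gave an adjusted p, against 0.226% of all genes, and 2 of the 9 to which it gave a p, Ahr and Tiparp, were below 0.05 in its unadjusted p, against 4.41% of all genes. At an unadjusted p below 0.05, edgeR placed 1 of the 9 higher, Ahr, where 2.87% of all tested genes were higher, and 1 lower, Tiparp, where 2.25% were lower. These shares of all genes, 451 higher and 353 lower in number, depend on scaling, with 653 higher and 239 lower by library size alone. With a log2 fold change beyond 1 required as well, 0 of the 9 remained, beside 0.35% of all genes higher and 0.299% lower. The CPM of the groups overlapped for every one of the 9 genes. A full separation was rare in all tested genes too, at 1.58% with LPS + Tan higher and 1.15% with it lower. At such shares, 0 of 9 does not set these genes apart. The median log2 fold change of the 9 genes was 0.09, beside 0.01 for all tested genes, and as samples were left out it ran from -0.01 without LPS replicate 3 to 0.17 without LPS replicate 4. With all samples the highest median was 0.19, by limma on log2(FPKM + 0.1), beside 0.04 for all tested genes.

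**Figure D1:**
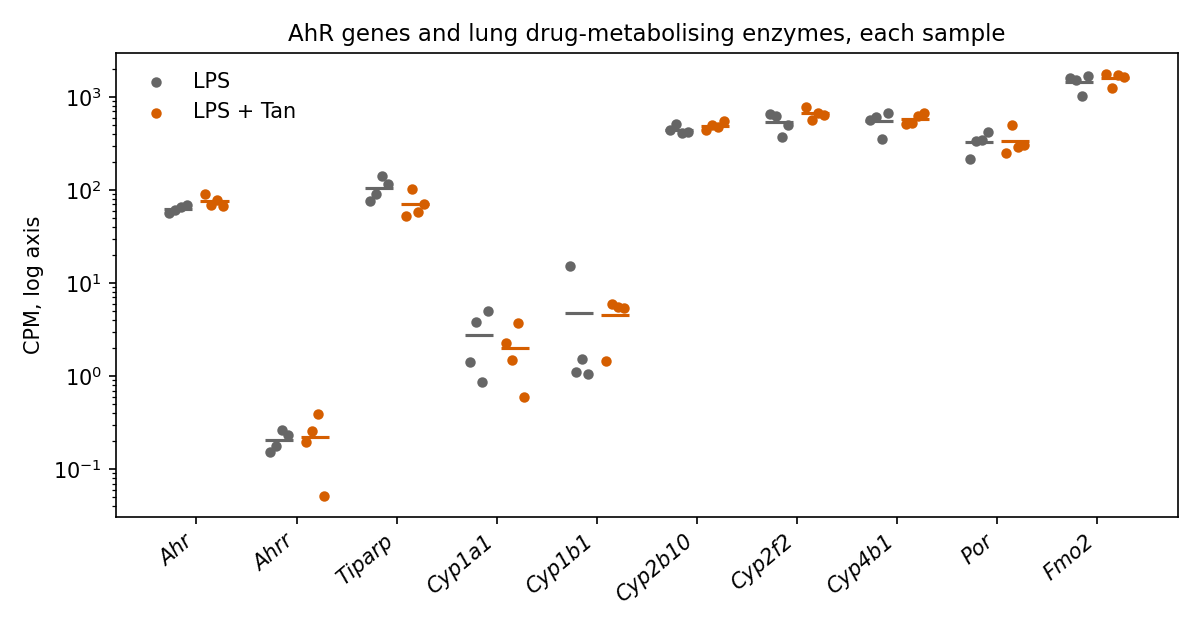
CPM of the 10 genes in each of the 8 samples on a log axis, with LPS in grey, LPS + Tan in orange and a horizontal line at each group mean. Fmo2 lies at 1012 CPM or more in all samples and Ahrr at 0.389 or less, and the groups overlap for every gene, with LPS replicate 1 of Cyp1b1 at 15.3 CPM far above the other LPS samples.

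Ahr, the gene of the receptor itself, lies at chr12:35497979-35534989 of GRCm38. Its CPM was 57.0, 61.1, 65.0 and 68.7 in LPS replicates 1 to 4, and 91.6, 69.5, 78.9 and 67.0 in LPS + Tan replicates 1 to 4. The LPS samples sat close together, and 3 of the 4 LPS + Tan samples lay above all of them, while LPS + Tan replicate 4 fell among the upper LPS samples. The means were 76.8 ± 11.2 CPM (SD, n = 4) with LPS + Tan and 63.0 ± 5.03 CPM (SD, n = 4) with LPS, a log2 fold change of 0.29 ± 0.11 (SE; adjusted p = 0.924, edgeR). By DESeq2 its adjusted p was 0.691, and over all alternatives it ran from 0.373 to 0.9999. Ahr missed the unadjusted threshold when LPS replicate 1 or 2, or LPS + Tan replicate 1 or 3, was left out, with log2 fold changes of 0.24, 0.27, 0.19 and 0.27, and with the replicate block (0.28). Less RNA per cell and fewer cells of a type cannot be told apart in RNA of whole lung, which holds for this and all genes below.

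Ahrr, at chr13:74211118-74292331, encodes the repressor that competes with the receptor for ARNT. It had 6, 7, 10 and 9 counts in LPS replicates 1 to 4, and 8, 10, 16 and 2 in LPS + Tan replicates 1 to 4. The highest and the lowest sample were both in the LPS + Tan group, and the LPS samples lay between them. In CPM this was 0.206 ± 0.0496 (SD, n = 4) with LPS and 0.223 ± 0.14 (SD, n = 4) with LPS + Tan (exact two-sided permutation test of log2 CPM, p = 0.886). What size of difference could be detected at so few counts was not tested.

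Tiparp, at chr3:65528447-65555518, encodes a mono-ADP-ribosyltransferase induced by the AhR. Its CPM was 76.7, 90.8, 140.4 and 115.8 in LPS replicates 1 to 4, and 52.5, 103.1, 57.9 and 70.8 in LPS + Tan replicates 1 to 4. LPS + Tan replicates 1, 3 and 4 lay below all LPS samples, whereas LPS + Tan replicate 2 fell in the middle of the LPS range. The mean was 71.1 ± 22.7 CPM (SD, n = 4) with LPS + Tan and 105.9 ± 28.1 CPM (SD, n = 4) with LPS, so that the difference was larger than either SD. The log2 fold change was -0.58 ± 0.24 (SE; adjusted p = 0.924, edgeR), its adjusted p was 0.612 by DESeq2, and it ran from 0.254 to 0.9999 over all alternatives. Without LPS replicate 3 the log2 fold change was -0.41 and the unadjusted threshold was missed, as it also was without LPS replicate 4 (-0.53) and without LPS + Tan replicate 1 (-0.46), 3 (-0.49) or 4 (-0.57), by limma on log2(FPKM + 0.1) (-0.54), and when limma took log2(FPKM + 1) of every gene (-0.52). Receptor and target thus differed in opposite directions, and neither passed the adjusted threshold.

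Cyp1a1, at chr9:57687928-57703824, encodes the P450 most often used as a readout of AhR activity. It was counted 55, 152, 33 and 195 times in LPS replicates 1 to 4, and 92, 59, 154 and 23 times in LPS + Tan replicates 1 to 4. Each group held a pair of samples with at least 92 counts and a pair with at most 59, and the ranges overlapped almost fully. The highest sample was 5.86 times the lowest in CPM within the LPS group and 6.26 times within the LPS + Tan group. The means were 2.79 ± 1.99 CPM (SD, n = 4) with LPS and 2.03 ± 1.33 CPM (SD, n = 4) with LPS + Tan, a log2 fold change of -0.46 ± 0.61 (SE; adjusted p = 0.978, edgeR). Its 95% interval went from -1.82 to 0.90 on the log2 scale. Without LPS replicate 2, 3 or 4 the log2 fold change was -0.27, -0.76 and -0.01, without LPS + Tan replicate 3 or 4 it was -0.94 and -0.16, and on log2(FPKM + 1) it was -0.16. Its neighbour and close relative Cyp1a2, which is mainly a liver gene, had 5 counts in LPS replicate 1 and 0 in the other 7 samples.

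Cyp1b1, at chr17:79706940-79715061, encodes the P450 of this family that is found mainly outside the liver. It was counted 597, 44, 59 and 41 times in LPS replicates 1 to 4, and 59, 232, 226 and 207 times in LPS + Tan replicates 1 to 4. In CPM these were 15.3, 1.11, 1.54 and 1.06 with LPS and 1.45, 5.90, 5.49 and 5.38 with LPS + Tan. LPS replicate 1 was the highest of all samples and LPS + Tan replicate 1 was as low as the other LPS samples, whereas LPS + Tan replicates 2 to 4 lay together above LPS replicates 2 to 4. The group means were nearly equal, 4.75 ± 7.02 CPM (SD, n = 4) with LPS and 4.56 ± 2.08 CPM (SD, n = 4) with LPS + Tan, a log2 fold change of -0.06 ± 0.84 (SE; adjusted p = 0.998, edgeR). Without LPS replicate 1 the log2 fold change was 1.88 and passed the unadjusted threshold, with an adjusted p of 0.875 by edgeR, which lay between 0.875 and 0.9999 over the alternatives, and without LPS + Tan replicate 1 it was 0.23. The sign of its difference thus turned without either of these 2 samples, and with all 8 kept it was 0.78 by limma-voom and 1.11 with the replicate block. DESeq2 gave this gene no p.

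**Figure D2:**
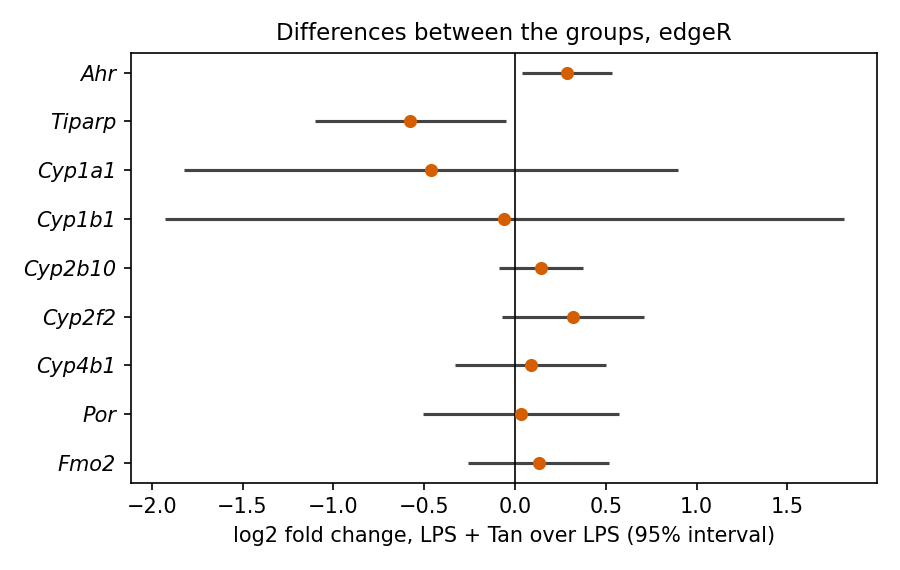
Log2 fold change of LPS + Tan over LPS with its 95% interval from edgeR for the 9 tested genes, with a vertical line at 0. The unadjusted intervals of Ahr (0.04 to 0.53) and Tiparp (-1.10 to -0.05) lie on opposite sides of 0, those of the other genes cross it, and Cyp1b1 has the widest.

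Cyp2b10, at chr7:25897658-25926624, belongs to a P450 family that the nuclear receptor CAR induces in liver and that is also made in lung. Its CPM was 438.2, 506.8, 408.5 and 420.4 in LPS replicates 1 to 4, and 446.2, 496.5, 469.4 and 546.6 in LPS + Tan replicates 1 to 4. All LPS + Tan samples lay above 3 of the 4 LPS samples, and LPS replicate 2 exceeded 3 of the 4 LPS + Tan samples. The means were 489.7 ± 43.2 CPM (SD, n = 4) and 443.5 ± 44.0 CPM (SD, n = 4), a log2 fold change of 0.14 ± 0.10 (SE; adjusted p = 0.936, edgeR), and the difference was slightly larger than either SD. Without LPS + Tan replicate 4 the log2 fold change was 0.09. Its relatives Cyp2b9, Cyp2b13, Cyp2b19 and Cyp2b23 had at most 5 counts in any sample, and the counting of reads that fit several copies is not described in the sources. The gene of CAR, Nr1i3, was at 0.0258 ± 0.0212 CPM (SD, n = 4) in the LPS group and at 0 counts in all LPS + Tan samples, and was not tested.

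Cyp2f2, at chr7:27119955-27133660 on the same chromosome, encodes the P450 of mouse club cells that activates naphthalene. Its CPM was 654.1, 616.4, 368.1 and 493.8 in LPS replicates 1 to 4, and 771.6, 570.1, 677.5 and 641.8 in LPS + Tan replicates 1 to 4. LPS replicates 3 and 4 were below all LPS + Tan samples, LPS replicates 1 and 2 were among them, and LPS replicate 3 was the lowest of the 8. The mean was 665.3 ± 83.8 CPM (SD, n = 4) with LPS + Tan and 533.1 ± 129.5 CPM (SD, n = 4) with LPS. This is a log2 fold change of 0.32 ± 0.18 (SE; adjusted p = 0.924, edgeR) and a 95% interval of -0.07 to 0.71. Without LPS replicate 1 it was 0.43 and passed the unadjusted threshold, with an adjusted p of 0.877 by edgeR, where all alternatives gave 0.527 to 0.9999. Without LPS replicate 3 it fell to 0.18.

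Cyp4b1, at chr4:115624698-115647721, encodes a lung P450 that hydroxylates fatty acids and activates protoxins. Its CPM was 565.7, 607.2, 353.0 and 675.5 in LPS replicates 1 to 4, and 516.3, 525.0, 617.6 and 679.7 in LPS + Tan replicates 1 to 4. The groups covered the same range apart from LPS replicate 3, which was again the lowest. The log2 fold change was 0.09 ± 0.19 (SE; adjusted p = 0.984, edgeR), and it was -0.08 without LPS replicate 3.

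Fmo2, at chr1:162874317-162898758, encodes the flavin-containing monooxygenase of lung, which oxidises nitrogen and sulfur of drugs without a P450. Its CPM was 1608, 1510, 1012 and 1661 in LPS replicates 1 to 4, and 1760, 1244, 1714 and 1622 in LPS + Tan replicates 1 to 4. LPS replicate 3 was the lowest sample here too, LPS + Tan replicate 2 was next, and the other samples of both groups lay close together. The log2 fold change was 0.13 ± 0.17 (SE; adjusted p = 0.978, edgeR), and without LPS replicate 3 it was -0.01.

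Por, at chr5:135670040-135735326, encodes the reductase that passes electrons from NADPH to all microsomal P450 enzymes. Its CPM was 216.5, 334.4, 345.2 and 418.3 in LPS replicates 1 to 4, and 247.6, 500.5, 287.8 and 307.6 in LPS + Tan replicates 1 to 4. LPS replicate 1 and LPS + Tan replicate 1 were the lowest samples of their groups and LPS + Tan replicate 2 was the highest of all. The log2 fold change was 0.03 ± 0.24 (SE; adjusted p = 0.998, edgeR), and its sign turned without LPS replicate 1 (-0.12) and without LPS + Tan replicate 2 (-0.23). The low value of LPS replicate 3 in Cyp2f2, Cyp4b1 and Fmo2 was not present in Por.

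In FPKM, which allows levels of different genes to be compared, the order over the 8 samples was Fmo2 (354.0 ± 66.3, SD, n = 8), Cyp2f2 (330.4 ± 74.2), Cyp4b1 (296.4 ± 57.0), Cyp2b10 (248.5 ± 26.4), Por (108.7 ± 29.8), Tiparp (21.2 ± 6.78), Ahr (12.8 ± 2.30), Cyp1b1 (0.899 ± 0.916), Cyp1a1 (0.873 ± 0.591) and Ahrr (0.0373 ± 0.0177). Cyp1b1 lay above Cyp1a1 in 3 of the 8 samples, and in the LPS group its mean was the lower of the 2, 0.905 beside 0.996 FPKM. Neighbours from Fmo2 down to Cyp2b10 had overlapping ranges, as did Tiparp with Ahr and Cyp1b1 with Cyp1a1. No overlap was found at the steps from Cyp2b10 to Por, from Por to Tiparp, from Ahr to Cyp1b1 and from Cyp1a1 to Ahrr. Over the 8 samples, the mean FPKM of Cyp2f2 was 378.5 times that of Cyp1a1 and 367.6 times that of Cyp1b1. These ratios pool unlike samples, since Cyp1a1 ran from 0.208 to 1.80 FPKM and Cyp1b1 from 0.204 to 2.91. With LPS the means of Cyp2f2 and Cyp1a1 were 289.4 and 0.996 FPKM, and with LPS + Tan 371.4 and 0.750. The ratio of these means was higher with LPS + Tan, but that difference was not tested. Without LPS replicate 4 the log2 fold change of Cyp1a1 was -0.01.

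Of 62 P450 genes in the table, 28 were tested, and 18 of these had log2 fold changes above 0 and 10 below, with a median of 0.12 beside 0.01 for all tested genes, the former being 0.05 without LPS replicate 3 and 0.08 without LPS + Tan replicate 3. Cyp2f2, Cyp4b1 and Cyp2b10 together held between 84.8% and 87.7% of the summed P450 FPKM of a sample. That sum was 1013, 1073, 682.7 and 973.5 in LPS replicates 1 to 4, and 1093, 978.9, 1143 and 1116 in LPS + Tan replicates 1 to 4, so LPS replicate 3 stood lowest. Cyp4v3 followed at 21.6 ± 1.92 FPKM (SD, n = 8), then Cyp2s1 at 18.6 ± 2.06, Cyp2d22 at 13.6 ± 3.62, Cyp20a1 at 12.9 ± 0.992, Cyp7b1 at 11.7 ± 2.66, Cyp39a1 at 9.55 ± 1.11 and Cyp26b1 at 8.14 ± 4.03. Cyp1b1 and Cyp1a1 ranked 22 and 23, an order that held in 3 of the 8 samples. Among the tested P450 genes 1 was higher at an unadjusted p below 0.05, Cyp27a1, the mitochondrial sterol 27-hydroxylase, where 2.87% of all tested genes were higher. It had 4.13 ± 1.24 CPM (SD, n = 4) with LPS + Tan and 2.35 ± 0.917 CPM (SD, n = 4) with LPS, a log2 fold change of 0.81 ± 0.33 (SE; adjusted p = 0.924, edgeR; exact permutation p = 0.0571). It missed the unadjusted threshold without LPS replicate 1 (0.81) or 3 (0.58) and without LPS + Tan replicate 1 (0.77) or 4 (0.62), and was 0.48 on log2(FPKM + 1). No P450 gene was lower at that threshold by edgeR, and edgeR called 0 at an adjusted p below 0.05.

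**Figure D3:**
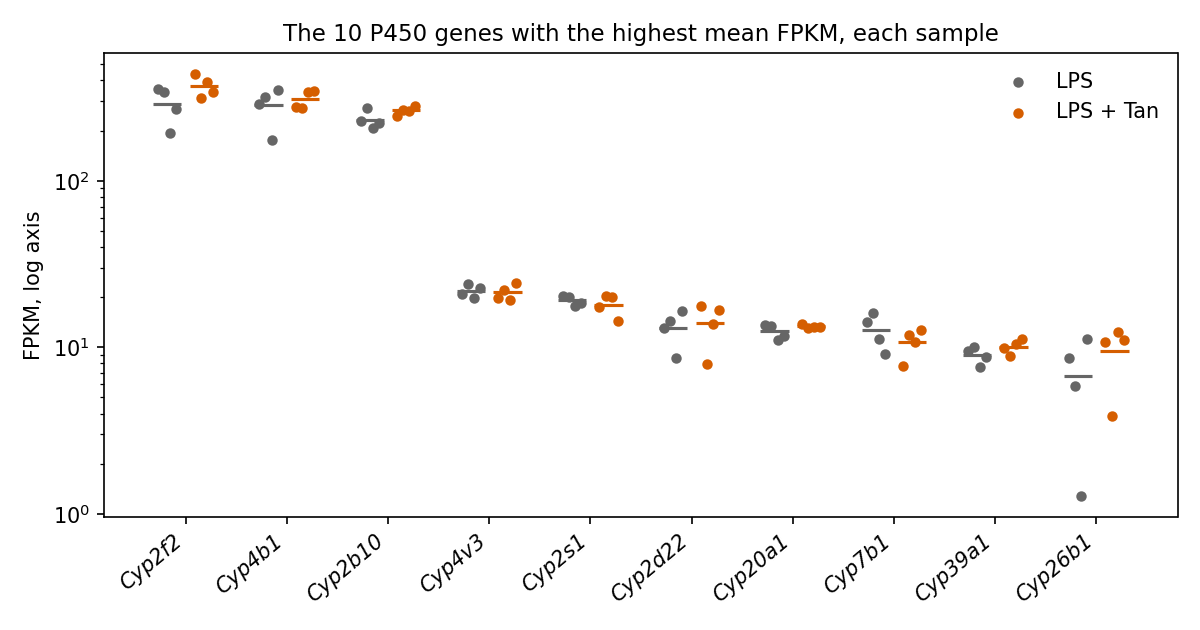
FPKM of the 10 P450 genes with the highest mean, in each sample on a log axis, with LPS in grey, LPS + Tan in orange and a line at each group mean. Cyp2f2, Cyp4b1 and Cyp2b10 lie at 176.5 FPKM or more in every sample and the other 7 genes at 24.2 or less.

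Of the 6 flavin-containing monooxygenase genes, 5 were tested, and Fmo4 was lower in every LPS + Tan sample than in any LPS sample, as were 1.15% of all tested genes. Its CPM was 3.22, 4.13, 3.37 and 6.04 in LPS replicates 1 to 4, and 1.33, 1.96, 1.99 and 2.96 in LPS + Tan replicates 1 to 4. The lowest LPS sample and the highest LPS + Tan sample lay close to each other. The log2 fold change was -1.02 ± 0.28 (SE; adjusted p = 0.919, edgeR), and 2.25% of all tested genes were lower at the unadjusted p below 0.05 that it passed. It was past both that threshold and a log2 fold change of -1, as were 0.299% of all tested genes. It kept an unadjusted p below 0.05 in all 19 refits, which reuse the same samples. By exact permutation p was 0.0286, the smallest possible, a value that follows from the full separation and adds nothing to it. Its log2 fold change was short of -1 without LPS replicate 4 (-0.79) or LPS + Tan replicate 1 (-0.86), with library size scaling (-0.99), and on log2(FPKM + 0.1) (-0.85) and log2(FPKM + 1) (-0.39).

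The partners of the receptor, ARNT and its relative and the chaperone complex that holds it in the cytosol, were all 6 tested, and 0 were past an unadjusted p of 0.05 in either direction by edgeR. At that threshold 2.87% of all tested genes were higher and 2.25% lower, shares that apply to each list that follows. Log2 fold changes of the 6 ran from -0.58 to 0.26, with 4 above 0 and 2 below. Their median was 0.06, and it was 0.03 without LPS + Tan replicate 4 and 0.12 without LPS + Tan replicate 2. Hsp90ab1 was the most abundant with 420.4 ± 67.5 FPKM (SD, n = 4) with LPS and 511.1 ± 79.2 FPKM (SD, n = 4) with LPS + Tan, a log2 fold change of 0.24 ± 0.15 (SE), and Hsp90aa1 followed with 119.4 ± 17.6 and 147.5 ± 26.2 FPKM and a log2 fold change of 0.26. Of 11 other genes commonly listed as AhR targets, 9 were tested, and 2 had log2 fold changes above 0 and 7 below, with a median of -0.24 beside 0.01 for all tested genes, the former being -0.16 without LPS replicate 1 and -0.39 without LPS + Tan replicate 1. None of the 9 passed the unadjusted threshold by edgeR. Entpd1, an ectonucleotidase, was 44.1 ± 14.7 FPKM (SD, n = 4) with LPS + Tan and 61.0 ± 22.1 FPKM (SD, n = 4) with LPS, a log2 fold change of -0.52 ± 0.28 (SE), which was -0.22 without LPS replicate 3 and -0.78 without LPS + Tan replicate 2. Nfe2l2, which encodes Nrf2, was 97.6 ± 9.93 and 88.7 ± 8.10 FPKM, a log2 fold change of 0.10, which was 0.05, 0.06 and 0.17 without LPS + Tan replicates 1, 2 and 3.

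Among 6 enzymes that turn tryptophan towards kynurenines and other AhR ligands, 5 were tested and 0 passed an unadjusted p of 0.05 by edgeR in either direction. Ido1, which opens the tryptophan ring, was the most abundant. Its CPM was 138.7, 156.2, 95.5 and 134.9 in LPS replicates 1 to 4, and 16.3, 44.1, 52.2 and 331.6 in LPS + Tan replicates 1 to 4. LPS + Tan replicates 1 to 3 were below all LPS samples, and LPS + Tan replicate 4 was above all of them. The log2 fold change was -0.24 ± 0.73 (SE; adjusted p = 0.989, edgeR), and it was -1.81 without LPS + Tan replicate 4, while its sign turned without LPS + Tan replicate 1 (0.12) or 2 (0.02) and it was -0.01 without 3. With all samples kept it was -1.12 by limma-voom, -1.16 with the replicate block, and -1.04 and -1.08 by limma on log2(FPKM + 1) and log2(FPKM + 0.1). Kyat1 was 2.61 ± 0.375 FPKM (SD, n = 8).

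Of the 3 xenobiotic nuclear receptor genes, 2 were tested and 0 passed an unadjusted p of 0.05 by edgeR. Rxra, the common partner, was 14.4 ± 1.24 FPKM (SD, n = 8). Nr1i2, the gene of PXR, was 0.179 ± 0.135 FPKM (SD, n = 4) with LPS and 0.0919 ± 0.0214 FPKM (SD, n = 4) with LPS + Tan. Its log2 fold change was -0.99 ± 0.50 (SE; adjusted p = 0.924, edgeR), and -0.35 without LPS replicate 2. By limma it was -0.10 on log2(FPKM + 1) and -0.44 on log2(FPKM + 0.1). The 7 genes of other electron carriers and haem synthesis were all tested, with 0 past that threshold by edgeR, and Cyb5a at 182.5 ± 24.6 FPKM (SD, n = 8) and Pgrmc1 at 88.8 ± 10.1 FPKM were the most abundant. Of 15 conjugating and other drug-metabolising enzymes, all tested, 12 had log2 fold changes above 0 and 3 below, with a median of 0.15 (0.07 without LPS replicate 3), and 2 were higher at an unadjusted p below 0.05, as were 2.87% of all tested genes. Ephx1, the microsomal epoxide hydrolase, was 42.0 ± 3.79 CPM (SD, n = 4) with LPS + Tan and 31.6 ± 7.57 CPM (SD, n = 4) with LPS, a log2 fold change of 0.41 ± 0.16 (SE), and Ugt1a7c, a glucuronosyltransferase, had one of 0.86 ± 0.37 (SE; adjusted p = 0.924 for both, edgeR). Ephx1 missed the unadjusted threshold without LPS replicate 4 (0.39) or LPS + Tan replicate 1 (0.39) or 3 (0.36), and its log2 fold change was 0.26 without LPS replicate 3. Ugt1a7c missed it without any 1 of the LPS samples (0.81 to 0.95), without LPS + Tan replicate 1 (0.92) or 2 (0.42), and by limma-voom (0.71) and limma on log2(FPKM + 1) (0.28) or log2(FPKM + 0.1) (0.64). By exact permutation p was 0.0571 for Ephx1 and 0.143 for Ugt1a7c. Ugt1a7c shares exons with the other Ugt1a genes, between which reads could be split.

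Because Cyp2f2 is made in club cells, the 5 club cell markers were set beside it. Their summed CPM was 18090, 18336, 13794 and 13385 in LPS replicates 1 to 4, and 12719, 14572, 11837 and 17448 in LPS + Tan replicates 1 to 4, and Scgb1a1 made up nearly all of it. The lowest and the highest sample of Cyp2f2, LPS replicate 3 and LPS + Tan replicate 1, both lay in the lower part of this range. Of the 5 markers, 4 had log2 fold changes below 0, namely Scgb1a1 (-0.17), Scgb3a2 (-0.01), Scgb3a1 (-0.42) and Cckar (-0.26), and Cldn10 had 0.02, with none at 0 counts. The part of club cell content in the values of Cyp2f2 was not tested.

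For the other cell types, summed marker CPM was 142.3 ± 10.7 (SD, n = 4) with LPS and 131.5 ± 16.3 with LPS + Tan for 4 ciliated cell genes including Tppp3, 8347 ± 1699 and 8540 ± 1948 for 5 genes of alveolar type 2 cells including Sftpc, and 1595 ± 75.8 and 1621 ± 235.2 for 4 genes of alveolar type 1 cells including Ager. It was 3145 ± 296.1 and 3147 ± 59.1 for 4 endothelial genes including Cdh5, 2211 ± 209.6 and 1964 ± 184.4 for 4 fibroblast genes including Pdgfra, and 1743 ± 514.8 and 1765 ± 428.7 for 5 macrophage genes including Chil3. The 4 neutrophil genes including S100a9 summed to 3896 ± 561.4 and 3946 ± 660.0, and the 5 erythroid genes including Hbb-bs to 2577 ± 856.3 and 1864 ± 376.1 (exact two-sided permutation test, p = 0.2). By the same test p was 0.143 for the fibroblast sum and 0.371 for the ciliated sum. All log2 fold changes were below 0 for the erythroid, fibroblast and ciliated genes. Those of the neutrophil genes were above 0 but small, from 0.008 to 0.09, and p for their sum was 0.914 by that permutation test. The groups were fully separate in 1 ciliated gene, as in 1.15% of all tested genes with LPS + Tan lower. LPS replicate 3 was lowest in Cyp2f2, Cyp4b1, Fmo2 and, by a small margin, Cyp2b10. Its erythroid (3427 CPM), neutrophil (4598 CPM), endothelial (3457 CPM) and fibroblast (2478 CPM) sums were the highest of the 8 samples. Its macrophage sum was 1177 CPM, beside 1178 in LPS + Tan replicate 3, where Cyp2f2 was at 677.5 CPM. Their part in the low values of that sample was not tested.

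The genes were also compared across the 8 mice, in 8 relations of log2 CPM with exact permutation over all pairings. For Cyp1a1 and the target genes Cyp1b1 and Tiparp no relation was detected, which with 8 samples does not show that there is none. The r was -0.424 for Cyp1b1 (exact permutation p = 0.293, adjusted p = 0.391, rho = -0.571, p = 0.151) and -0.107 for Tiparp (exact permutation p = 0.796, adjusted p = 0.868, rho = 0.0238, p = 0.977). Without the 2 samples farthest from the median of Cyp1a1, LPS replicate 4 and LPS + Tan replicate 4, r was -0.183 and -0.644. For Ahrr, also a target but with few counts, r was 0.590 (exact permutation p = 0.114, adjusted p = 0.358, rho = 0.286, p = 0.501) and was 0.150 without those samples. They were chosen as the extremes of Cyp1a1, so a lower r without them cannot show what the relation rested on. With values centred on each group mean r was 0.585, and on log2(FPKM + 1) it was 0.506.

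By Pearson r the closest relation was that of Cyp2f2 and Fmo2, with r = 0.816 (exact permutation p = 0.0220, adjusted p = 0.176 over the 8 relations) and rho = 0.738 (exact permutation p = 0.0458, adjusted p = 0.183). Without LPS replicates 3 and 4, the samples farthest from the median of Cyp2f2, r was 0.880, and with values centred on each group mean it was 0.83. Centring moved r by over 0.2 in 3 other relations, from -0.107 to -0.311 for Cyp1a1 with Tiparp, from 0.489 to 0.271 for Cyp2f2 with Cyp2b10 and from 0.0804 to 0.371 for Cyp2f2 with Scgb1a1. Cyp2f2 and Por, the closest pair by rho, ran in opposite directions, with r = -0.517 (exact permutation p = 0.189, adjusted p = 0.358), rho = -0.833 (exact permutation p = 0.0154, adjusted p = 0.123) and r = -0.753 without those samples. For Cyp4b1 r was 0.588 (exact permutation p = 0.137, adjusted p = 0.358, rho = 0.0952, p = 0.840) and for Cyp2b10 0.489 (exact permutation p = 0.224, adjusted p = 0.358, rho = 0.333, p = 0.428), and both turned negative without LPS replicates 3 and 4, to -0.169 and -0.546. With the club cell gene Scgb1a1 r was 0.0804 (exact permutation p = 0.868, adjusted p = 0.868, rho = -0.238, p = 0.582), and -0.479 without those samples. LPS replicates 3 and 4 were chosen as the extremes of Cyp2f2, so a changed r without them cannot show what these relations rested on. None of the 8 relations passed an adjusted p of 0.05 by r or by rho.

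Among 13735 other genes with a mean of at least 1 CPM, those most like Cyp1a1 across the 8 samples by Pearson r of log2 CPM were Yipf2 (0.965), Fam214a (0.961), Glb1l2 (0.958), Cep152 (0.957) and Lif (0.954). Exoc8 (0.972), Vgll3 (0.972), Gm15998 (0.969), Rita1 (0.969) and Nrg2 (0.966) were the most like Cyp2f2. None of the 10 genes described here was among them. With 8 samples and so many genes, values of this height are a description only.

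The core of the element bound by the AhR with ARNT is GCGTG, and TNGCGTG is a longer form that contains it. Both were searched on either strand of RefSeq promoter windows of GRCm38.p6, which run from 250 bases before to 50 bases after the start of a transcript. For Cyp1a1 and Por that start lies 9685 and 19105 bases inside the gene coordinates given above, and the second window of Fmo2 begins from a start 265 bases inside. Windows were held for 9 of the 10 genes, all but Ahr. GCGTG was found in 32.4% of all 32851 windows and TNGCGTG in 5.07%, and among the 9 genes GCGTG was found for 6 and TNGCGTG for 1, Ahrr. The windows of Cyp2f2, Cyp4b1 and Fmo2 held no GCGTG, those of Ahrr and Por held 3 each, that of Cyp2b10 held 2, and those of Tiparp, Cyp1a1 and Cyp1b1 held 1 each. Sequence outside these windows was not searched, so the counts cannot rank the genes by their AhR elements. To show the core in its context in the AhR targets, 41 bases of the gene's strand are given for Cyp1a1 (chr9:57697541-57697581, plus strand), Cyp1b1 (chr17:79715115-79715155, minus strand), Tiparp (chr3:65528259-65528299, plus strand) and, around the longer form, Ahrr (chr13:74292336-74292376, minus strand), with the core in capitals, which reads CACGC where it lies on the opposite strand.
Cyp1a1: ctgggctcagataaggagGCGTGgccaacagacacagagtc
Cyp1b1: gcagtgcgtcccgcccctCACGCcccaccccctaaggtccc
Tiparp: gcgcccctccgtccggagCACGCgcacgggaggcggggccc
Ahrr: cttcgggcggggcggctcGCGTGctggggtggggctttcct
The first base of the core lay 54 bases before this transcript start in Cyp1a1, 76 in Cyp1b1, 170 in Tiparp and 27 in Ahrr. These matches are letters in a window and say nothing of binding. The 4 genes that hold them differed in direction and spread in the CPM above, with Tiparp lower in 3 of 4 LPS + Tan samples than in any LPS sample, Cyp1a1 and Ahrr mixed in both groups, and Cyp1b1 with replicate 1 of either group far from the other 3.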

How the data were processed

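RNA-seq of lung was analysed in 4 LPS and 4 LPS + Tan samples, grouped by their labels. The authors deposited raw read counts for 24584 genes and FPKM values, which equal counts per length of the gene and per total count of the sample. The submitters' processing notes name the builds GRCm38 and mm10. Which aligner, counter and annotation were used is not stated in those notes (not given in the sources used here). Methods and labels name different extraction and library kits, and whether counting used strand is not stated. Tiparp overlaps 4931440P22Rik and Por overlaps Gm40345, which had at most 18 and 1 counts in a sample, and Por also overlaps Gm16061, not analysed here. Gene coordinates and promoter sequences are RefSeq's for GRCm38.p6.

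All genes were fitted at once with edgeR 4.0.16 under R 4.3.3 (filterByExpr, TMM, quasi-likelihood test, no covariate), with Benjamini-Hochberg adjustment over 15706 genes. Genes past the DEG limits of the study, a p-value below 0.05 and a log2 fold change beyond 1 either way, were counted as well. The unadjusted p was used here for the first limit. The standard error is the log2 fold change divided by the root of F. For a single value, an exact two-sided permutation test was run over the 70 arrangements of the samples, whose smallest p is 0.0286. No 2 samples were repeats of 1 library, since the squared count difference had a median between 7.83 and 23.2 times the value expected from sampling alone in the 28 pairs.

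The 10 genes and the lists of related genes and cell type markers were chosen with earlier results of these data known. Besides the 10, the text names of each list and of the P450 and monooxygenase families up to 5 genes per direction with the lowest unadjusted p below 0.05, or else the 2 with the highest FPKM, the 10 most abundant P450 genes, club cell and hepatocyte markers, the gene of other marker lists with the highest mean CPM over all samples, and the 5 genes most like Cyp1a1 and Cyp2f2. Cyp1a2, Nr1i3 and the relatives of Cyp2b10 were named after their values were seen.

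Alternatives were DESeq2 1.42.0, RLE, upper-quartile and no scaling, no filter, 1 CPM in 4 samples, limma-voom (limma 3.58.1), limma on log2-transformed FPKM with a pseudocount of 1 or 0.1 and, for the former, on all genes, a replicate block, each sample left out in turn, and the permutation test. List medians with a sample left out were added after the data were examined. Correlations were repeated with group-centred values and with log2(FPKM + 1). The scripts were tested on simulated data.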

Additional observations from a re-analysis of the deposited data

Results flagged for a closer look

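In 82 groups of 4 samples, made of the 10 genes, the marker sums and the related genes named above in both groups, 7 had a sample far from the other 3, measured as its gap to the nearest sample divided by the whole range of the group. Chance gives about 1 in 20 groups. Cyp1b1 was the gene with such a sample in both groups, LPS replicate 1 as the highest (0.966 of the range) and LPS + Tan replicate 1 as the lowest (0.883 of the range). The 2 samples carry the same number, their total counts were 39733172 and 39465593, and neither was far from its group in another of the 10 genes. Over all genes, the 2 closest of the 28 pairs of samples were LPS replicates 1 and 2 (7.83 times the value expected from sampling alone) and LPS + Tan replicates 1 and 3 (7.88 times). LPS + Tan replicate 1 was at 17.2 and 19.5 times from LPS + Tan replicates 2 and 4. From LPS replicates 1 to 4 it was at 12.9, 13.7, 20.5 and 15.3 times. LPS replicate 1 was at 12.8 and 9.86 times from LPS replicates 3 and 4, and at 11.7 to 13.7 times from the LPS + Tan samples. Ahr was the lowest of the 8 samples in LPS replicate 1 and the highest in LPS + Tan replicate 1. Beyond these values, the labels of the 2 samples were not tested.

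Ido1 was far higher in LPS + Tan replicate 4 than in the other 3 samples of its group (0.886 of the range), and Rxra was lowest in the same sample (0.852). Within the LPS + Tan group, Entpd1 was highest in replicate 2 (0.862), where Tiparp and Por were also the highest, and Cyp26b1 was lowest there (0.840). Within the LPS group, Hsp90aa1 was highest in replicate 1 (0.842).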

How the results depend on the processing

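Over the 19 refits of the whole table, edgeR, DESeq2 and limma called 0 of the 10 genes at an adjusted p below 0.05, and of 180 recomputed differences of the 9 tested genes, the permutation test included, 168 kept their direction and 153 also their side of an unadjusted p of 0.05. The 153 include Cyp1b1 by DESeq2, which gave this gene no p. At an unadjusted p below 0.05 the count of higher genes was 0 with the replicate block and ran from 0 to 2 as samples were left out, and the count of lower genes was 0 with limma on log2(FPKM + 0.1) and when log2(FPKM + 1) of all genes was used, and 0 to 1 as samples were left out. Among all genes, DESeq2 called 35 at an adjusted p below 0.05 and leaving out samples gave 0 to 1. At the unadjusted threshold 653 genes were higher and 239 lower with library size scaling, 702 higher and 266 lower with limma on log2(FPKM + 1), 964 higher and 389 lower on all genes, 631 higher and 569 lower without a filter, and leaving out samples gave 268 to 820 higher and 212 to 806 lower. Cyp1b1 was the least stable, with a log2 fold change of 0.78 by limma-voom, 0.17 on log2(FPKM + 1) with or without the filter, 0.64 on log2(FPKM + 0.1), scales that shrink differences of low genes, 1.11 with the replicate block, 0.79 as the difference in mean log2 CPM (exact permutation p = 0.429), and -0.39 to 1.88 as samples were left out. Leaving out samples also turned Cyp4b1 (-0.076 to 0.20), Por (-0.23 to 0.17), Fmo2 (-0.0073 to 0.23), Cyp2d22 (-0.087 to 0.25), Ido1 (-1.81 to 0.12), Kyat1 (-0.12 to 0.073), Pgrmc1 (-0.074 to 0.10) and Rxra (-0.092 to 0.0077), and Kyat1 was 0.0054 on log2(FPKM + 1) with or without the filter and 0.0096 on log2(FPKM + 0.1). Apart from fewer samples in a fit, the cause was not tested. By exact permutation, Ahr (p = 0.0571), Tiparp (p = 0.114), Cyp27a1 (p = 0.0571), Ephx1 (p = 0.0571) and Ugt1a7c (p = 0.143) were above 0.05. Medians of the 8 gene lists kept their sign under the 3 other scalings, with the tryptophan enzymes at -3.0e-05 by library size (from -0.045). With a sample left out the sign turned for the monooxygenases without LPS replicate 3 (-0.027 from 0.13), the tryptophan enzymes without LPS + Tan replicate 1 (0.11 from -0.045) and the electron carriers without LPS + Tan replicate 4 (-0.0086 from 0.049). Without a turn of sign, the AhR partners were at 0.12 without LPS + Tan replicate 2 (from 0.059). The nuclear receptors were at -0.22 without LPS replicate 2 (from -0.52). Replicate numbers did not pair the samples, since deviations of the same number correlated at 0.113, -0.0223, -0.136 and 0.0197, and no sample correlated best with its own number.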
